A study of Zea mays with 4 samples.

Results

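miR166 is a conserved plant microRNA family, and its entries in this maize leaf dataset were the rows whose name holds miR166 or MIR166 with no further digit, each distinct sequence being used once. This gave 15 sequences from 32 rows, out of 319 distinct sequences in 500 rows. Small RNA was sequenced from maize leaves of the 4-leaf stage, to follow microRNAs during feeding by the fall armyworm *Spodoptera frugiperda*, a moth whose caterpillars eat maize leaves. The 4 libraries stood for 4 groups with no replicates: T1 after 1 day of feeding, T3 after 3 days, and CK1 and CK3, whose labels give only the tissue and which are taken here as the unfed controls. The labels name no cultivar, no sampling time of the unfed leaves, and no number of plants behind a library. Each fed library was set against the unfed library with the same number in its title.

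In plants, miR166 pairs almost perfectly with the messenger RNAs of the class III homeodomain-leucine zipper (HD-ZIP III) transcription factors and directs their cleavage. These factors set the upper (adaxial) side of the leaf, the shoot meristem and the vasculature, and miR166 keeps their transcripts out of the lower (abaxial) side; in maize, *rolled leaf1* is a known target. The guide strand comes from the 3p arm of the hairpin precursor, while the 5p strand is its partner in the duplex cut out by Dicer-like 1 and is mostly degraded. RefSeq's annotation of maize (Zm-B73-REFERENCE-NAM-5.0) lists 13 MIR166 loci, from MIR166a to MIR166m, of which MIR166k and MIR166m are neighbours, so a sequence shared by several loci cannot be assigned to a single one.

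The sequences fell into 7 entries of the 3p arm, 6 of the 5p arm and 2 of 18 nt that resemble neither. An entry was counted as 3p if it began with the first 15 bases of zma-miR166a-3p. The other entries, apart from those of 18 nt, were counted as 5p. By this definition all 7 3p entries had the same seed, CGGACCA at bases 2 to 8, which no other sequence of the table had. They are given in full, from the deposited table as DNA letters, 5′ to 3′, with the seed in capitals, because they differ only near the 3′ end.
zma-miR166a-3p: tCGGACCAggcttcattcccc
zma-miR166l-3p: tCGGACCAggcttcattcctc
zma-miR166j-3p: tCGGACCAggcttcaatccct
ssp-miR166_R+1: tCGGACCAggcttcattcccct
osa-miR166a-3p_R+1: tCGGACCAggcttcattcccca
osa-miR166m_1ss21TA: tCGGACCAggcttcattccca
aof-miR166b_L-2R+1: tCGGACCAggcttcattctt

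Counting from 1 at the 5′ end of zma-miR166a-3p, zma-miR166l-3p carried C20T, and zma-miR166j-3p carried T16A and C21T. The entry osa-miR166m_1ss21TA carried C21A. Both ssp-miR166_R+1 and osa-miR166a-3p_R+1 were 1 base longer than zma-miR166a-3p and otherwise equal to it, and aof-miR166b_L-2R+1 was 1 base shorter with C19T and C20T. All 7 began with T (U in the RNA), as did 37.3% of the 319 distinct sequences. Since 3p entries were defined by their shared start, none could be shifted at the 5′ end. None of the entries printed below has the letters of a shifted 3p form.

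The 5p entries varied at the 5′ end and also by base changes, and both gave differences at positions 2 to 8, again in capitals. The zma-miR166h-5p entries, for example, begin with the same bases as zma-miR166a-5p_L-1R+1 and differ from it within the seed.
zma-miR166a-5p_L-1R+1: gAATGTTGtctggctcggggc
zma-miR166m-5p_L-2R+2: aATGTTGGctggctcgaggca
zma-miR166b-5p: gGAATGTTgtctggttcaagg
zma-miR166c-5p: gGAATGTTgtctggctcgagg
zma-miR166h-5p_L-1R+1: gAATGACGtccggtccgaacg
zma-miR166h-5p_L-1R+3: gAATGACGtccggtccgaacaag

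The 6 entries held 4 different seeds. That of zma-miR166b-5p and zma-miR166c-5p was shared by these 2, as was that of the zma-miR166h-5p entries. The remaining 2 sequences, 18 nt long, are shown because their names place them in the family while their letters do not.
ath-MIR166c-p5_2ss6TG17AC: ggtcaggaagaagagact
mtr-MIR166b-p3_2ss10AC17TA: ctttgtttccctctttat

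Their longest run shared with any 3p or 5p entry, on either strand, was 5 bases, whereas every 3p and 5p entry shared a run of at least 11 bases with another of its arm. The first of these was listed under both the p5 and the p3 name with the same values. The name is the only link of these 18-nt entries to miR166 here, so they are given separately, though the family totals include them as the naming rule requires.

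The values are normalized by the authors and are called normalized reads here. Most values in a library were whole multiples of a single step (90.0% to 93.6% of values above 0, within 0.02 of a read), and this step, taken as 1 read, was worth 0.736 and 0.826 normalized reads in the unfed CK1 and CK3 but 0.303 and 0.352 in the fed T1 and T3. By it the listed entries stood for 80609 (CK1) and 83592 (CK3) reads against 195983 (T1) and 169533 (T3), so the fed libraries were the deeper. Few listed values in any library (1 to 4) stood below 5 reads, a level of 3.68 (CK1), 4.13 (CK3), 1.51 (T1) and 1.76 (T3) normalized reads, and an entry listed at 0 can have been present below it. Intervals computed from these implied reads, rounded to whole reads, cover counting error only. With 1 library per group, a difference between single libraries has no replicate check.

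Summed over its 15 entries, the family reached 1759 normalized reads in CK1 and 1154 in CK3, against 1962 in T1 and 2347 in T3. It was lowest in CK3 and highest in T3, and both fed libraries stood above both unfed ones. These sums were 2.96%, 1.67%, 3.31% and 3.93% of all listed entries in the same order. Among 65 named families miR166 ranked 5 in CK1 and 9 in CK3, against 6 in T1 and 4 in T3.

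**Figure D1:**
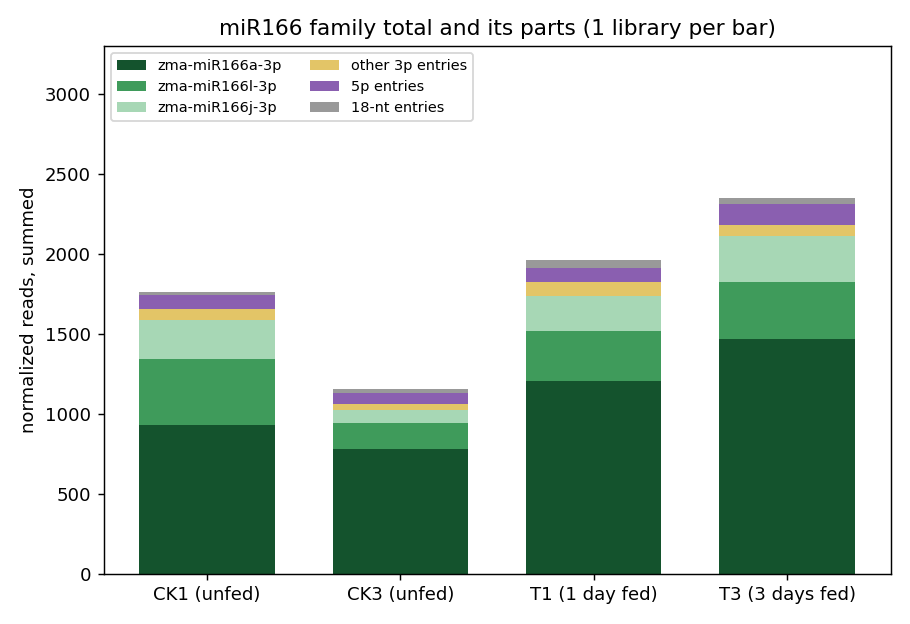
Summed normalized reads of the miR166 family in each library (1 library per bar, no error bar), split into the 3 leading 3p entries, the other 3p entries, the 5p entries and the 18-nt entries. The bars reach 1759 in CK1 and 1154 in CK3, against 1962 in T1 and 2347 in T3, and zma-miR166a-3p is the largest part of each.

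The dominant form was zma-miR166a-3p, at 932 normalized reads in CK1 and 778 in CK3, against 1208 in T1 and 1470.4 in T3. Its row stood 9 times in the table, under the one name and with equal values. Both fed libraries were higher than both unfed ones, and CK3 was the lowest. The form next in abundance, zma-miR166l-3p, stood at 412, 165, 308 and 355 normalized reads in the same order, highest in CK1 and lowest in CK3. zma-miR166j-3p stood at 242, 82.4, 220 and 284, also lowest in CK3 but highest in T3. For both of these, CK1 lay within or above the range of the fed libraries, so the fed and unfed libraries overlapped. Together the 3 forms held 90.2% of the family in CK1 and 88.9% in CK3, against 88.5% in T1 and 89.9% in T3. They were also the only entries of the family whose values were not whole multiples of the step in every library, for example 560.26 implied reads of zma-miR166l-3p in CK1. How the authors divided reads between near-identical sequences is not given in the sources used here, and the split between these 3 forms is uncertain to that extent.

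Because a share within a library does not depend on the scaling between libraries, the balance of the 3 forms was compared by shares. The shares still depend on how the authors divided reads between these near-identical forms, which the intervals do not cover. zma-miR166a-3p made up 53.0% of the family in CK1 (95% Wilson interval 51.0 to 55.0) and 67.5% in CK3 (65.0 to 69.9), against 61.6% in T1 (60.4 to 62.8) and 62.7% in T3 (61.5 to 63.8). The unfed libraries thus lay on either side of the fed ones, which had overlapping intervals. zma-miR166l-3p held 23.4% in CK1 (21.8 to 25.2), against 14.3% in CK3 (12.6 to 16.3), 15.7% in T1 (14.8 to 16.6) and 15.1% in T3 (14.3 to 16.0), so CK1 stood apart for this form. zma-miR166j-3p held 13.8% in CK1 (12.4 to 15.2) and 7.14% in CK3 (5.92 to 8.63), against 11.2% in T1 (10.5 to 12.0) and 12.1% in T3 (11.3 to 12.9), and here CK3 stood apart. Put as a ratio, there were 2.26 normalized reads of zma-miR166a-3p for each of zma-miR166l-3p in CK1 and 4.72 in CK3, against 3.93 in T1 and 4.14 in T3. These differences are larger than counting error, and no replicate shows how far they exceed the spread between plants.

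**Figure D2:**
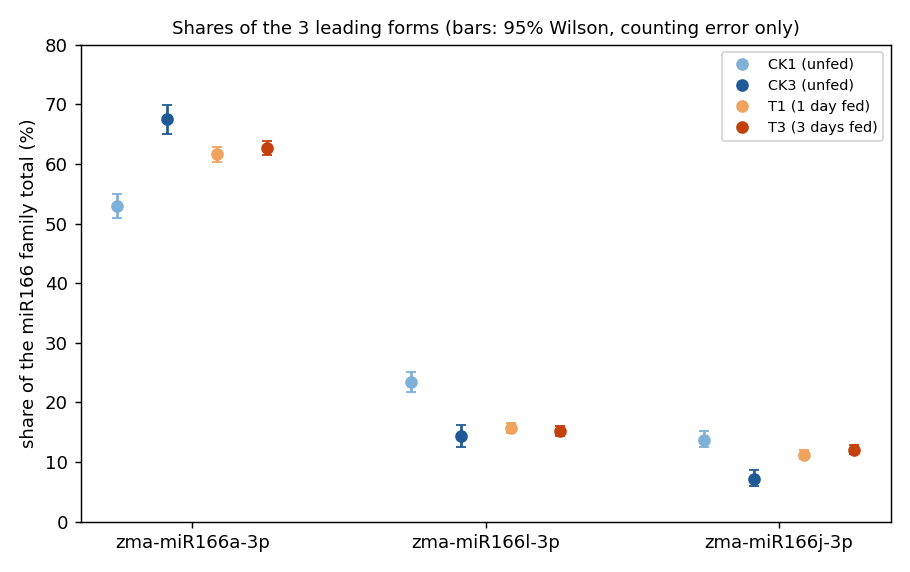
Share of the miR166 family total (percent, vertical axis) held by zma-miR166a-3p, zma-miR166l-3p and zma-miR166j-3p in each library, with 95% Wilson intervals from implied reads (counting error only). CK1 and CK3 lie on either side of T1 and T3 for zma-miR166a-3p (53.0% and 67.5% against 61.6% and 62.7%), CK1 is high for zma-miR166l-3p at 23.4%, and CK3 is low for zma-miR166j-3p at 7.14%.

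The other 3p entries differed from the dominant form at the 3′ end and held 3.77% of the family in CK1 and 3.22% in CK3, against 4.35% in T1 and 3.06% in T3. ssp-miR166_R+1, 1 base longer, was at 33.9 normalized reads in CK1 and 19.8 in CK3, against 37.5 in T1 and 35.9 in T3. CK3 was the lowest, and the other libraries lay close together. osa-miR166a-3p_R+1, also 1 base longer, was at 8.17 normalized reads in T1 and 12.0 in T3 and was listed at 0 in CK1 and CK3, with both fed values above the level of 5 reads in either unfed library. The variants 1 base longer made up 2.05% of the 3p reads in CK1 and 1.86% in CK3, against 2.51% in T1 and 2.20% in T3, with overlapping Wilson intervals. osa-miR166m_1ss21TA, the C21A form, was at 32.4, 17.3, 35.1 and 23.9 normalized reads. Its share of the 3p reads was 1.93% in T1 (1.61 to 2.31) and 1.10% in T3 (0.867 to 1.39), and it was 1.96% in CK1 (1.46 to 2.62) and 1.63% in CK3 (1.07 to 2.48). It was thus scarcer among 3p reads in T3 than in T1 and CK1 beyond counting error. aof-miR166b_L-2R+1 was listed in T1 alone, at 4.54.

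The 5p strands held 5.02% of the family in CK1 and 5.73% in CK3, against 4.74% in T1 and 5.66% in T3. There were 18.7 normalized reads of 3p for each of 5p in CK1 and 16.1 in CK3, against 19.6 in T1 and 16.4 in T3, so the balance of the arms kept to a narrow range while the total varied. The most abundant 5p entry, zma-miR166a-5p_L-1R+1, was at 20.6 in CK1 and 26.4 in CK3, against 32.1 in T1 and 51.4 in T3, with both fed libraries above both unfed ones. zma-miR166m-5p_L-2R+2 was at 39.7, 8.26, 26.0 and 47.9, the largest ratio of highest to lowest value of any entry listed in all 4 libraries. Like the zma-miR166l-3p and zma-miR166j-3p entries it was lowest in CK3, where its value stood for only 10 implied reads. zma-miR166b-5p had the opposite order of the unfed libraries, at 13.2, 22.3, 20.9 and 19.0. zma-miR166c-5p was at 14.7, 9.08, 10.3 and 10.2, which stood for 11 to 34 implied reads. The zma-miR166h-5p entries were each listed in a single fed library, zma-miR166h-5p_L-1R+1 at 4.22 in T3 and zma-miR166h-5p_L-1R+3 at 3.63 in T1, close to what 5 reads were worth in the unfed libraries.

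Of the 18-nt entries, ath-MIR166c-p5_2ss6TG17AC was at 17.7 in CK1 and 24.8 in CK3, against 40.9 in T1 and 32.7 in T3, with the fed libraries higher. mtr-MIR166b-p3_2ss10AC17TA was listed in T1 alone, at 6.66. Together they held 1.0% of the family in CK1 and 2.15% in CK3, against 2.42% in T1 and 1.40% in T3. In all, 10 of the 15 entries were listed in every library and 5 only in fed ones (33.3%). Of all 307 entries of the table (distinct sequences after merging duplicates of equal value), 25.4% were listed only in fed libraries, which were also over 2 times deeper, and the part of depth in this was not tested.

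**Figure D3:**
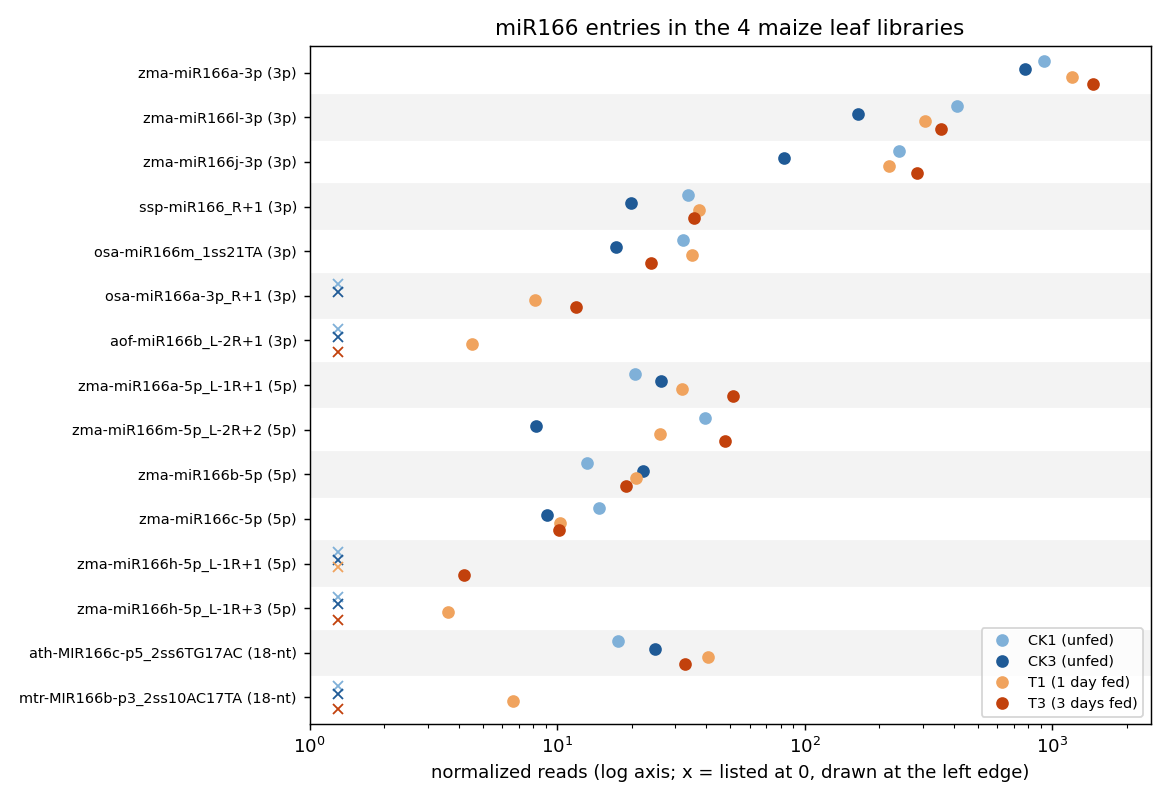
Normalized reads (log axis) of each of the 15 miR166 entries in CK1, CK3, T1 and T3, grouped as 3p, 5p and 18-nt, with crosses at the left edge where an entry is listed at 0. The leading 3p forms lie far to the right of the rest, CK3 is the lowest library for each of the leading 3 forms and for zma-miR166m-5p_L-2R+2, and the 5 entries with crosses in both unfed libraries reach at most 12.0.

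After 1 day of feeding, the question was how far the family differed from CK1. The family total was 1.12 times that in CK1, a log2 ratio of 0.16 on the log2(value + 1) scale used for all log2 ratios here (counting interval 0.09 to 0.23), short of 2-fold. The counting intervals of log2 ratios were computed without the added 1, so for low entries they are not centred on the printed ratio. In T1, 17.4% of 46 family totals that reached 10 normalized reads in either library were higher by 2-fold or more and 2.17% lower. The log2 ratio was 0.37 (0.28 to 0.47) for zma-miR166a-3p, -0.42 (-0.57 to -0.27) for zma-miR166l-3p and -0.13 (-0.33 to 0.06) for zma-miR166j-3p. Against CK1 the leading form and the form next to it thus had opposite signs beyond counting error, but against CK3 both were positive, at 0.63 (0.53 to 0.74) and 0.89 (0.68 to 1.12).

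Among the 10 miR166 entries that reached 10 normalized reads in T1 or CK1, 6 had a positive and 4 a negative log2 ratio, with a median of 0.13 against -0.10 over all 159 entries compared. A single one was at least 2-fold higher, where 15.7% of all compared entries were, and none was at least 2-fold lower, where 10.7% were. The one entry was the 18-nt ath-MIR166c-p5_2ss6TG17AC, with a log2 ratio of 1.17 (0.58 to 1.90), and no entry with the letters of miR166 passed. Of the 5p entries, zma-miR166a-5p_L-1R+1 and zma-miR166b-5p each had a log2 ratio of 0.62 and zma-miR166m-5p_L-2R+2 one of -0.59. With CK3 as the control, the log2 ratio of the family total was 0.77, zma-miR166j-3p and zma-miR166m-5p_L-2R+2 turned to 1.41 and 1.55, and the 18-nt entry was short of 2-fold at 0.70.

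After 3 days of feeding, the family total in T3 was 2.03 times that in CK3, a log2 ratio of 1.02 (counting interval 0.94 to 1.11), just past 2-fold. Of 47 family totals compared, 31.9% were higher by 2-fold or more and 12.8% lower, and their median log2 ratio was 0.37. Of the 11 miR166 entries compared, 4 were at least 2-fold higher, where 25.4% of all 173 compared entries were, and none was at least 2-fold lower, where 20.2% were. Their median log2 ratio was 0.92 against 0.09 over all compared entries, and 10 of 11 were positive. Of the 4, osa-miR166a-3p_R+1 was listed at 0 in CK3 and was compared only because of its T3 value, so its call was fixed by the rule. Any such entries among the 173 were counted in the same way.

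The entries past 2-fold were zma-miR166l-3p, with a log2 ratio of 1.10 (0.88 to 1.33), zma-miR166j-3p with 1.77 (1.48 to 2.10), zma-miR166m-5p_L-2R+2 with 2.40 (1.61 to 3.63), and osa-miR166a-3p_R+1, which was listed at 0 in CK3. The dominant zma-miR166a-3p had one of 0.92 (0.81 to 1.02), short of 2-fold, and the only negative value was that of zma-miR166b-5p, -0.22. Against CK1 the log2 ratio of the family total in T3 was 0.42 and short of 2-fold, that of zma-miR166j-3p was 0.23, that of zma-miR166m-5p_L-2R+2 was 0.26 and that of zma-miR166l-3p was -0.22. By contrast zma-miR166a-5p_L-1R+1 was past 2-fold against CK1, with 1.28 (0.73 to 1.96) where it had 0.93 against CK3, and osa-miR166a-3p_R+1 was listed at 0 in CK1 as well. Under median-of-ratios scaling the family total in T3 against CK3 was at 0.96.

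**Figure D4:**
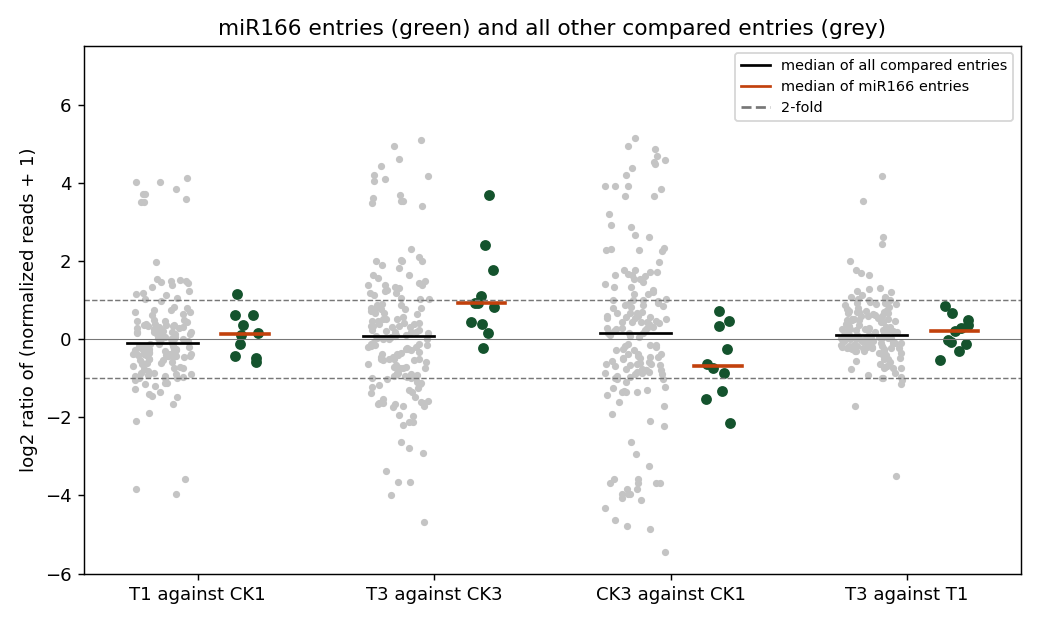
Log2 ratios of (normalized reads + 1) between single libraries, for the miR166 entries (green) and for all other entries that reached 10 normalized reads in one of the libraries (grey), with dashed lines at 2-fold and short lines at the medians. The miR166 median is 0.92 for T3 against CK3 and -0.69 for CK3 against CK1, and it is 0.13 for T1 against CK1 and 0.21 for T3 against T1.

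The unfed libraries also differed from each other. The family total in CK3 was 0.656 times that in CK1, a log2 ratio of -0.61 (counting interval -0.70 to -0.51), where 18.6% of 43 family totals were lower by 2-fold or more and 18.6% higher. Of 10 miR166 entries compared, 3 were at least 2-fold lower, where 22.9% of all 175 entries were, and none was at least 2-fold higher, where 25.7% were. The 3 were zma-miR166l-3p, with a log2 ratio of -1.32 (-1.56 to -1.08), zma-miR166j-3p with -1.54 (-1.89 to -1.22) and zma-miR166m-5p_L-2R+2 with -2.14 (-3.41 to -1.28). They were all among the 4 past 2-fold in T3 against CK3, a comparison that shares CK3. zma-miR166a-3p had a log2 ratio of only -0.26 (-0.38 to -0.14).

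Between the feeding times, the family total in T3 was 1.20 times that in T1, a log2 ratio of 0.26 (0.21 to 0.31), where 10.4% of 48 family totals were higher by 2-fold or more and 2.08% lower. None of the 11 miR166 entries compared differed by 2-fold, where 12.7% of all 158 entries were higher and 3.80% lower in T3. zma-miR166a-3p had a log2 ratio of 0.28, zma-miR166l-3p 0.21 and zma-miR166j-3p 0.36. The values farthest from 0 were those of zma-miR166m-5p_L-2R+2 at 0.85, zma-miR166a-5p_L-1R+1 at 0.66 and osa-miR166m_1ss21TA at -0.53.

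Taking the fed and the unfed libraries as 2 groups of 2, the log2 family total was higher by 0.59 in the fed ones. By an exact permutation test (two-sided) p was 0.333, the smallest that 2 against 2 allow, so the test could not pass 0.05. The difference was between 0.29 (without CK3) and 0.89 (without CK1) when a library was left out. In limma's test over 147 entries, none of the 10 miR166 entries fitted and none of all entries (0%) passed an adjusted p of 0.05, and an unadjusted p under 0.05 was reached by 0 of the 10 and by 7 of the 147. The other 5 miR166 entries were too low for the fit. The smallest p among them was that of zma-miR166a-3p, with a log2 difference of 0.64 ± 0.30 (SE) and an adjusted p by limma of 0.85. zma-miR166j-3p had a log2 difference of 0.82 ± 0.62, zma-miR166l-3p of 0.34 ± 0.55 and zma-miR166a-5p_L-1R+1 of 0.77 ± 0.51. Both fed libraries lay above both unfed ones for 4 of the 10 entries, where 18.4% of the 147 did. The 4 were zma-miR166a-3p, zma-miR166a-5p_L-1R+1, ssp-miR166_R+1 and the 18-nt ath-MIR166c-p5_2ss6TG17AC. The spread in this test includes feeding time. Whether the plants behind the libraries were separate is not stated, so the p-values measure no more than the spread between these 4 samples.

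Other families that act on leaf development were read beside miR166. On the abaxial side of the leaf, miR166 has a counterpart in miR390, which triggers the TAS3 small interfering RNAs that act against auxin response factors of the ARF3 type on the adaxial side. The miR390 total was 706 normalized reads in CK1 and 457 in CK3, against 551 in T1 and 427 in T3, nearly all of it zma-miR390a-5p. Like miR166 it was lower in CK3 than in CK1, but T3 was its lowest library, whereas it was the highest for miR166. The log2 ratio of miR390 was -0.36 in T1 against CK1 and -0.10 in T3 against CK3. In the list of 10 families (miR156, miR159, miR164, miR167, miR171, miR172, miR319, miR390, miR396 and miR529), T1 held 4 of 44 compared entries at 2-fold or more over CK1 and 4 at 2-fold or more under it (over all entries 15.7% and 10.7%), with a median log2 ratio of -0.25 against -0.10 over all entries. In T3 against CK3, 15 of 47 passed upwards and 3 downwards (over all entries 25.4% and 20.2%), and the median was 0.21 against 0.09. In CK3 against CK1, 7 of 46 passed upwards and 12 downwards (over all entries 25.7% and 22.9%), and the median was -0.46 against 0.15. By family total none of the 10 differed by 2-fold in T1 against CK1, where 17.4% of 46 family totals were higher and 2.17% lower. In T3 against CK3, 3 of the 10 were higher by 2-fold or more, namely miR164, miR319 and miR172, the last listed at 0 in CK3. None was lower. Of all 47 family totals compared there, 31.9% were higher and 12.8% lower, so 3 of 10 is near that share. CK3 was also below CK1 for these 3 families, with a log2 ratio of -0.94 for miR164 and with miR172 at 30.5 normalized reads in CK1. The miR319 total was only 6.62 normalized reads in CK1 and 2.06 in CK3, both under the minimum of 10. It was therefore not compared between the unfed libraries, and its call in T3 rests on 11.4 against the same 2.06.

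Of 26 other families with a mean total of at least 50 normalized reads, the 3 whose profile over the 4 libraries was most like that of miR166 were miR164, miR827 and miR528. Likeness was the Euclidean distance between log2(total + 1) values, each family centred on its own mean. It was 0.32 for miR164, a regulator of NAC factors, at 453 normalized reads in CK1 and 236 in CK3, against 375 in T1 and 492 in T3. It was 0.46 for miR827, at 1141, 728, 857 and 1227, and 0.49 for miR528, at 2473, 1494, 2147 and 2109. The next family, miR168, was at 0.51, so the order past the nearest is close. In all 3 CK3 was the lowest library, as in miR166, which a choice by likeness over the same libraries favours. CK3 was also the lowest in families farther off, such as miR159 and miR160, and the highest in others, such as miR408 and miR167. CK1 stood relatively higher in the 3 nearest families than in miR166. The distance of miR390 was 0.93.

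**Figure D5:**
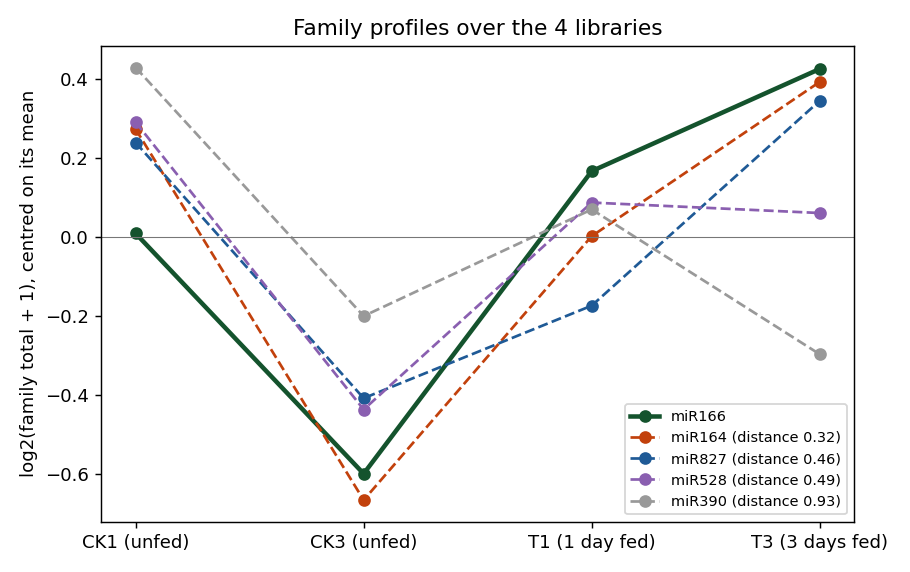
Log2(family total + 1) in each library, centred on the family's mean over the 4 libraries, for miR166, its 3 nearest families and miR390; lines join values of a family and imply no time course. miR166 stands at -0.60 in CK3 and 0.42 in T3, miR164 follows it at a distance of 0.32, and miR390 has its lowest value in T3 at -0.30.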

How the data were processed

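Leaf RNA was isolated with Trizol and turned into TruSeq small RNA libraries for Illumina sequencing, per the labels' protocols, which mention more libraries than were analysed here. The deposited table holds a normalized signal for each microRNA sequence, per the file headers. The authors' scaling, aligner, microRNA caller and genome are not given in the sources at hand. Whole reads were recovered for only part of the values, so no count model was applied.

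Rows of equal sequence were used once, and entries of equal values whose names differed in a final number or whose sequences were nested were merged, giving 307 entries; no miR166 entries merged. Single libraries were compared by size (2-fold, at least 10 normalized reads in the higher), and fed with unfed by limma 3.58.1 in R 4.3.3 with a trended prior on log2(value + 1), for entries of at least 10 in at least 2 libraries, Benjamini-Hochberg adjusted. That fit was tested on simulated data beforehand, with changes much larger than any miR166 difference in it. This check therefore does not show whether differences of the miR166 size could be found. Wilson and exact binomial 95% intervals used implied reads. Base pairing was computed with ViennaRNA 2.7.2, other steps with Python 3.11.15 and scipy 1.17.1. The design foresaw edgeR only for raw counts, which the table does not hold. Entries named are the dominant form, the 5p entries and all that reach 10 normalized reads, and the 3 nearest families. The members and lists were chosen with earlier results of these data known.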

Additional observations from a re-analysis of the deposited data

Results flagged for a closer look

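For zma-miR166l-3p, the log2 ratio was -0.42 in T1 against CK1 and 1.10 in T3 against CK3, opposite directions that were each beyond counting error. For zma-miR166m-5p_L-2R+2 it was -0.59 in T1 against CK1 and 2.40 in T3 against CK3, likewise. The difference between the times was not tested, since each time has 1 library and its own control. Between the controls themselves, these entries had log2 ratios of -1.32 and -2.14 in CK3 against CK1, and between T3 and T1 of 0.21 and 0.85.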

How the results depend on the processing

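The log2 family ratio of T3 to CK3 (1.02) fell short of 2-fold under median-of-ratios scaling (0.96), with CK1 (0.42) or the mean of both unfed libraries (0.69) as control, and for the dominant form alone (0.92). That of CK3 to CK1, -0.61, passed a call at 1.5-fold. The other family totals kept their direction and side of 2-fold under every alternative run. In T1 against CK1, 1 entry was higher and 0 lower; a call at 1.5-fold gave 3 and 1, no minimum 5 higher, CK3 as control 2 and the mean control 0. In T3 against CK3, 4 were higher, where 44 of all 173 entries were. Equal sums gave 7, where 52 of all 172 entries were higher. A call at 1.5-fold also gave 7, no minimum 5, and CK1 or the mean as control 2 each. In CK3 against CK1 a call at 1.5-fold gave 1 higher and 6 lower, against 0 and 3. Equal sums gave 4 lower, where 51 of all 172 entries were lower, against 40 of 175 under the authors' scaling. In T3 against T1 a call at 1.5-fold gave 2 higher, and no minimum gave 1 higher and 3 lower, against 0 each. For settings other than equal sums the share of all entries is not given here, so those counts cannot be set against it. With the other control, log2 ratios changed sign in T1 for zma-miR166j-3p (1.41), zma-miR166m-5p_L-2R+2 (1.55), zma-miR166l-3p (0.89), zma-miR166c-5p (0.16) and zma-miR166b-5p (-0.09), and in T3 for zma-miR166l-3p (-0.22), zma-miR166c-5p (-0.49), zma-miR166b-5p (0.49) and osa-miR166m_1ss21TA (-0.42). With the mean control they did so in T1 for zma-miR166l-3p (0.09), zma-miR166j-3p (0.44) and zma-miR166m-5p_L-2R+2 (0.11), and in T3 for zma-miR166c-5p (-0.20), zma-miR166b-5p (0.09) and osa-miR166m_1ss21TA (-0.05). Equal sums moved the median log2 ratio of all entries in T3 against CK3 from 0.09 to 0.31 and in CK3 against CK1 from 0.15 to -0.115. The cause of these changes was not tested.

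Without the 18-nt entries, an alternative chosen after the sequences were seen, zma-miR166a-3p held 63.1% in T1, and the 3p entries held 94.9% in CK1 and 94.1% in CK3, against 95.1% in T1 and 94.3% in T3. In fed against unfed, leaving out a library changed the sign of some log2 differences, which ran from -0.48 (without CK3) to 0.16 (without CK1) for zma-miR166c-5p and from -0.15 (without CK1) to 0.55 (without CK3) for zma-miR166b-5p. From without CK3 to without CK1, they ran from -0.32 to 0.998 for zma-miR166l-3p, from -0.16 to 1.97 for zma-miR166m-5p_L-2R+2 and from -0.15 to 0.71 for osa-miR166m_1ss21TA. No miR166 entry passed limma's test in any of these fits, where a lone library is assumed to vary like the others, nor with the title number as a replicate block (0 entries, smallest limma adjusted p 0.80; family difference 0.59). The smallest limma adjusted p of a miR166 entry lay between 0.089 (without CK1) and 0.999 (without T1). Without CK3, 4 other entries of the table passed. The title numbers are not stated to pair libraries; same-numbered deviations had a correlation of 0.28 over 147 entries. Entries at 10 to 30 implied reads are limited by depth.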

Other observations

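Folded as RNA duplexes with the leading 3p forms, the 5p entries formed 11 to 16 base pairs. zma-miR166a-5p_L-1R+1 formed 15 with zma-miR166a-3p and left 2 unpaired bases at the 3′ end of each strand, the ends that Dicer-like cleavage leaves. The zma-miR166h-5p_L-1R+1 entry formed 16 pairs with the same 2-base ends. Every 5p entry formed fewer pairs with zma-miR166j-3p than with zma-miR166a-3p, for example 11 against 13 for zma-miR166m-5p_L-2R+2. The deposited table gives no precursor, so which strands came from one hairpin was not determined.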
